A study of Mus musculus with 19 samples.

Results

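The 10 immediate early genes *Fos*, *Fosb*, *Junb*, *Egr1*, *Egr2*, *Egr4*, *Arc*, *Npas4*, *Nr4a1* and *Dusp1* were measured in 3 brain regions of wild-type mice (WT) and of knock-in mice (KI) for spinocerebellar ataxia type 17 (SCA17). They were chosen by name, and each name matched 1 Ensembl identifier of the count table in the GENCODE M21 annotation. All 10 of the 10, among 41128 genes in the table, passed the filter on low counts and were part of the 16841 genes tested. The series held 19 RNA sequencing libraries from C57BL/6 mice of 3 months, in 6 groups: 3 WT and 4 KI libraries of the cerebellum (CB), and 3 libraries of each genotype from the striatum (STR) and from the prefrontal cortex (PFC). In KI mice the polyglutamine stretch of TBP, which binds the TATA box, is expanded through the germline and so in all cells, after a cross of floxed knock-in mice with EIIa-Cre mice and a further cross with WT mice; WT mice of the same age were the controls. No treatment is given for any group, and mice of both sexes were used in the study. The hour at which tissue was taken and the handling of the mice before it are not given in the sources used here.

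Immediate early genes are transcribed within minutes of a stimulus such as synaptic activity, growth factors or stress, from transcription factors that already sit on their promoters. Calcium and kinase signals phosphorylate CREB, which binds the cyclic AMP response element (CRE), and the complex of SRF with its partners, which binds the CArG box. Their transcripts are short-lived, and most of their products are transcription factors that act on later genes, so in neurons their level is widely read as a trace of recent activity.

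Library totals ran from 10639110 to 17431284 counts. Defining markers were highest where the tissue labels place them: the summed level of 10 cerebellar neuron markers was between 5990 and 8790 CPM (counts relative to the library total, scaled by TMM) in CB and at most 644 CPM elsewhere, 10 striatal projection neuron markers reached 5690 to 12200 CPM in STR and at most 1200 CPM elsewhere, and 10 cortical neuron markers reached 1560 to 2440 CPM in PFC and at most 706 CPM elsewhere. KI libraries had lower sums than WT libraries for the cerebellar markers in CB (5990 to 7020 against 8040 to 8790 CPM) and for the striatal markers in STR (5690 to 8130 against 10500 to 12200 CPM). In such bulk tissue, fewer cells of a type and less RNA per cell cannot be told apart. Choroid plexus markers varied from 255 to 10900 CPM among CB libraries and from 3080 to 17500 CPM among STR libraries. Judged by *Xist* against Y-linked counts, 2 of 3 CB WT, 2 of 4 CB KI, 2 of 3 STR WT, 1 of 3 STR KI, 2 of 3 PFC WT and 1 of 3 PFC KI libraries were from females.

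The promoters are shown first, and whether their motifs bear on how these genes moved together among the libraries was not tested. RefSeq windows of GRCm38.p6, from 250 bases before to 50 bases after the start of transcription, were at hand for 8 of the 10 genes, in 12 windows, 5 of them for *Egr2*, which overlap in part. The 4 shown belong to *Fos*, *Egr2*, *Npas4* and *Dusp1*, which between them hold the CRE and CArG motifs. Capitals mark the CRE half-site TGACG on either strand (CGTCA on the strand shown) and the CArG box.
Fos, chr12:85473640-85473939, plus strand: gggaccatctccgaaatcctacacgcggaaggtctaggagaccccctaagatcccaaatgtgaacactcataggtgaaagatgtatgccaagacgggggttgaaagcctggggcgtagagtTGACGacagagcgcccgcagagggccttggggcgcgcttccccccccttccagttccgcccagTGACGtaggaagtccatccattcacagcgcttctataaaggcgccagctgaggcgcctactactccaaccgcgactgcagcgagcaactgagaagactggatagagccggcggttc
Egr2, chr10:67537619-67537918, plus strand: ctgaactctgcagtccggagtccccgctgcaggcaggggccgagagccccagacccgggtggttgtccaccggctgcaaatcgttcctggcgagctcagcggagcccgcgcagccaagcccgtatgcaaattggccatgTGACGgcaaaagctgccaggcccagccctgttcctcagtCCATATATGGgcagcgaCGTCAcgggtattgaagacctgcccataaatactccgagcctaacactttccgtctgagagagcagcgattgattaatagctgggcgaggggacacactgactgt
Npas4, chr19:4989922-4990221, minus strand: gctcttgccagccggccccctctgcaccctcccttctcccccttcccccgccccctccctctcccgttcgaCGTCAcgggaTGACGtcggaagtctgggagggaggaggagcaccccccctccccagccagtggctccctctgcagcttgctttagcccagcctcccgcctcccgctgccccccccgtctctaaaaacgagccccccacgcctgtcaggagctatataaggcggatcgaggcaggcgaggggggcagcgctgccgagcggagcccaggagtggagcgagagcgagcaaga
Dusp1, chr17:26508423-26508722, minus strand: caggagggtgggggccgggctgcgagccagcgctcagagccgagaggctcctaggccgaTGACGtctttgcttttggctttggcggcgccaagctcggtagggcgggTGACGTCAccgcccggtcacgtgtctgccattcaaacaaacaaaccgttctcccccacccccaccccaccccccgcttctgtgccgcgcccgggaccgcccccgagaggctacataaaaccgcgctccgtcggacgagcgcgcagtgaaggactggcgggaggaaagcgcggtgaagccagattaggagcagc

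The half-site TGACG was in 10 of the 12 windows and in at least 1 window of all 8 genes, against 20.8% of 32851 promoter windows of the same length. The full element TGACGTCA, which contains the half-site on both strands, was in the *Dusp1* window alone among the 12, against 1.79% of all windows. In *Fos* the nearer of its half-sites began 66 bases before the start, and in *Npas4* the nearer began 169 bases before it. A CArG box was in 4 of the 5 *Egr2* windows, in the one shown 72 bases before the start, against 1.63% of all windows. The letters TATAAA, 1 form of the core of the element that TBP binds, were in the windows of *Fos*, 33 bases before the start, and of *Junb*, at its start, against 13.6% of all windows. Other forms of that core were not searched, so windows without these letters may still hold the element. The EGR core GCGGGGGCG was in the windows of *Fosb* and *Nr4a1*, against 2.91% of all windows. Both strands were searched, and these matches are a description of the letters in these windows and not of binding.

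*Fos* and *Junb* encode partners of the AP-1 transcription factor. *Fos* (ENSMUSG00000021250, chromosome 12, 85473890 to 85477273) stood at 46.6, 94.7 and 105 CPM in CB WT and at 34.7, 4.49, 99.0 and 74.2 CPM in CB KI. In STR it stood at 6.34, 60.0 and 95 CPM in WT and at 15.7, 81.9 and 37.1 CPM in KI. In PFC it stood at 25.1, 63.2 and 152 CPM in WT and at 38.9, 97.0 and 121 CPM in KI. The genotypes overlapped in every region, and the highest library of a group exceeded the lowest by between 2.24 times in CB WT and 22.0 times in CB KI. *Junb* (ENSMUSG00000052837, chromosome 8, 84974484 to 84978718) measured 10.3, 18.9 and 23.4 CPM in CB WT and 9.46, 9.37, 20.7 and 14.5 CPM in CB KI. In STR its levels were 39.9, 146 and 180 CPM in WT and 49.1, 162 and 89.2 CPM in KI. In PFC they were 40.5, 86.8 and 173 CPM in WT and 74.0, 120 and 148 CPM in KI. Every STR and PFC library was thus above every CB library, with genotypes overlapping in each region. *Junb* shares 173 bases of exon with *Prdx2* on the other strand, and since this library kit does not mark strand, reads of that stretch cannot be told apart.

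*Fosb* (ENSMUSG00000003545, chromosome 7, 19302696 to 19310051), a further AP-1 partner whose stable splice product builds up with repeated stimulation, was the member of lowest level in STR and PFC. It had only 3, 5 and 4 counts in CB WT and 5, 1, 11 and 4 counts in CB KI, so counting error alone is large there. It stood at 3.07, 5.87 and 6.03 CPM in STR WT, 3.92, 8.50 and 5.55 CPM in STR KI, 5.00, 3.94 and 8.96 CPM in PFC WT and 3.82, 9.44 and 9.48 CPM in PFC KI. The CB libraries, at 0.0554 to 0.616 CPM, lay below all others.

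The EGR genes encode zinc finger factors that bind GC-rich sites. *Egr1* (ENSMUSG00000038418) was at 63.4, 90.9 and 87.3 CPM in CB WT and 66.2, 63.9, 119 and 83.5 CPM in CB KI. It was at 246, 608 and 567 CPM in STR WT and 251, 621 and 402 CPM in STR KI. In PFC it was at 299, 544 and 667 CPM in WT and 230, 793 and 729 CPM in KI. Genotypes overlapped in all regions, and CB lay below both other regions without overlap. *Egr2* (ENSMUSG00000037868, chromosome 10, 67535475 to 67542188), also known for its part in myelinating Schwann cells, was near absent from CB, with 1, 2 and 0 counts in the WT libraries and 2, 4, 1 and 2 in the KI libraries. The WT count of 0 allows up to 3 counts in that library, for counting error only. In STR it stood at 9.35, 63.5 and 61.3 CPM in WT and 10.3, 53.8 and 29.6 CPM in KI, and in PFC at 10.1, 20.6 and 50.2 CPM in WT and 6.97, 33.0 and 37.5 CPM in KI. *Egr2* thus separated CB from the forebrain by the widest margin of the 10 genes. *Egr4* (ENSMUSG00000071341, chromosome 6, 85511121 to 85513589) measured 7.33, 12.0 and 13.2 CPM in CB WT and 6.75, 4.55, 12.2 and 8.40 CPM in CB KI. Its STR levels were 37.5, 120 and 120 CPM in WT and 36.9, 139 and 72.0 CPM in KI. Its PFC levels were 45.8, 60.3 and 96.6 CPM in WT and 42.4, 85.8 and 83.2 CPM in KI. The first library of each STR and PFC group was the lowest of its group for *Egr4*, as it was for most of the 10 genes.

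*Arc* (ENSMUSG00000022602, chromosome 15, 74669083 to 74672570) encodes an effector and not a transcription factor, a capsid-like protein that acts at synapses in the removal of AMPA receptors. It stood at 24.7, 34.1 and 32.3 CPM in CB WT and at 38.6, 43.1, 40.4 and 48.7 CPM in CB KI. In STR it stood at 122, 375 and 446 CPM in WT and 142, 415 and 233 CPM in KI, and in PFC at 138, 718 and 876 CPM in WT and 162, 548 and 811 CPM in KI. *Arc* in CB was the one case among the 10 genes and 3 regions in which every KI library lay on one side of every WT library. *Npas4* (ENSMUSG00000045903, chromosome 19, 4984355 to 4990316), a factor induced by calcium entry in neurons, measured 2.19, 5.11 and 5.26 CPM in CB WT and 4.45, 0.665, 7.68 and 5.20 CPM in CB KI. Its STR levels were 2.80, 43.5 and 43.2 CPM in WT and 3.85, 32.3 and 7.14 CPM in KI. Its PFC levels were 10.5, 22.8 and 58.7 CPM in WT and 8.30, 29.7 and 32.4 CPM in KI. The lowest STR libraries fell within the CB range, so that STR and CB overlapped for *Npas4*.

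*Nr4a1* (ENSMUSG00000023034, chromosome 15, 101254269 to 101274795), an orphan nuclear receptor, measured 25.4, 49.2 and 45.4 CPM in CB WT and 20.3, 9.42, 46.5 and 26.9 CPM in CB KI. Its STR levels were 41.9, 162 and 219 CPM in WT and 77.3, 224 and 111 CPM in KI. Its PFC levels were 59.3, 113 and 253 CPM in WT and 70.2, 121 and 182 CPM in KI. Genotypes overlapped in each region, and 1 STR WT library reached down into the CB range. *Dusp1* (ENSMUSG00000024190, chromosome 17, 26505590 to 26562128) encodes a phosphatase that switches off MAP kinases. It stood at 173, 269 and 256 CPM in CB WT and at 133, 62.0, 230 and 170 CPM in CB KI. In STR it stood at 56.3, 131 and 174 CPM in WT and 57.2, 133 and 89.4 CPM in KI, and in PFC at 59.0, 159 and 241 CPM in WT and 78.3, 147 and 154 CPM in KI. All 3 regions overlapped for *Dusp1*. It shares 11 bases of exon with *Ergic1* on the other strand.

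**Figure D1:**
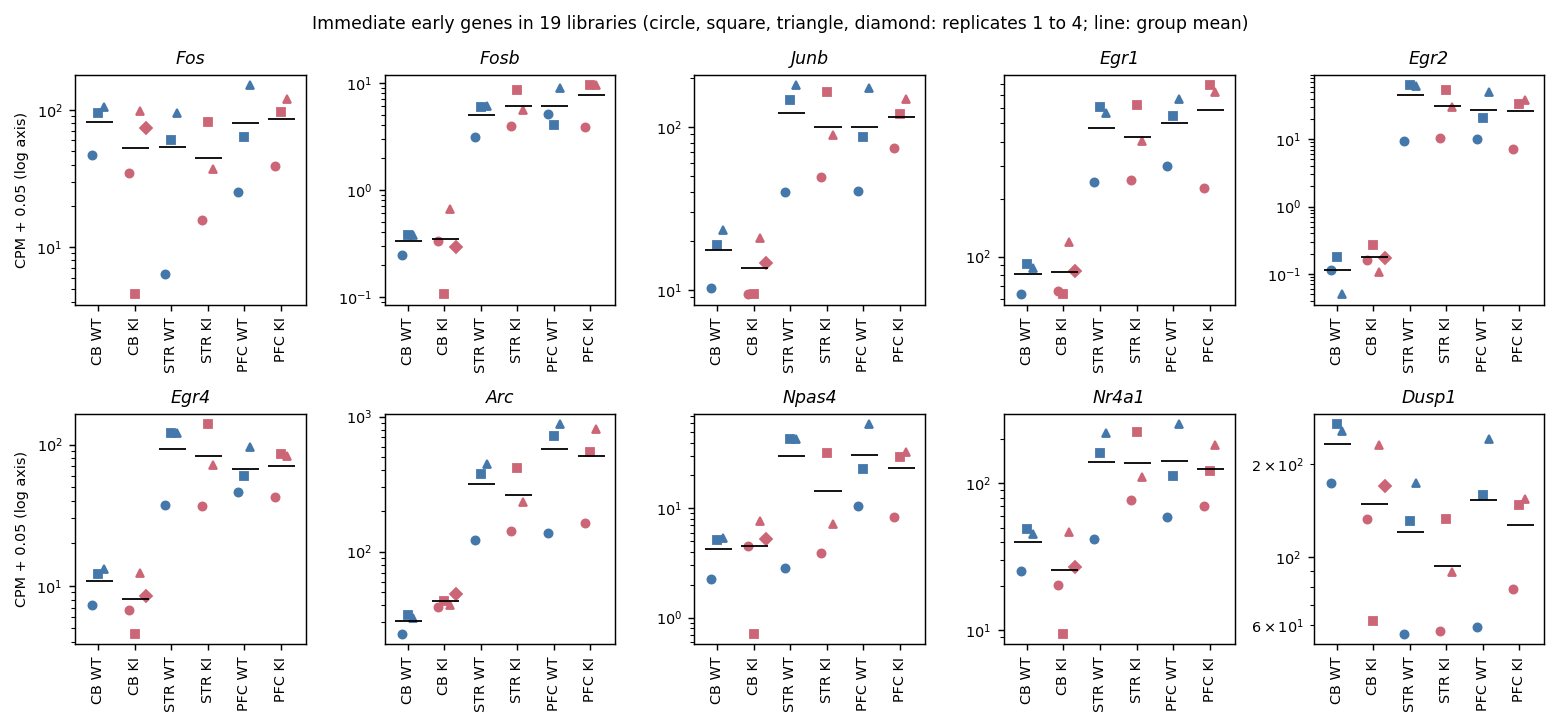
Level of each immediate early gene in CPM plus 0.05 (log axis, with its own range in each panel) in the 19 libraries, by region and genotype (blue, WT; red, KI), with the marker giving the replicate number and the line the group mean. Within a group the libraries spread widely, by up to 22.0 times for *Fos* in CB KI, and 8 of the 10 genes are lower in CB. Among these, *Fosb* and *Egr2* passed the filter on low counts only through STR and PFC.

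Compared per length, as CPM per kilobase of exon, the order of the members differed between regions. In CB *Dusp1* came first (70.4 ± 15.7 in WT, SD, n = 3), followed by *Fos* (34.8 ± 13.2) and *Egr1* (18.0 ± 3.33). In STR *Egr1* (106 ± 44.2) and *Arc* (103 ± 55.8) led in WT, and in PFC *Arc* (189 ± 127) and *Egr1* (112 ± 41.7). Neither of these pairs of leading genes differed beyond its spread between libraries. *Fosb* and *Egr2* were the last of the 10 in CB, and *Npas4* and *Fosb* in STR and PFC.

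Whether KI changed the members was tested in each region with edgeR's quasi-likelihood test over all 19 libraries and Benjamini-Hochberg adjustment over the 16841 genes. In CB 0 of 10 members passed, where 0.831% of all tested genes did. In STR 0 of 10 passed against 0.582% of all tested genes, and in PFC 0 of 10 against 0.107%. With KI minus WT averaged over the 3 regions, 0 of 10 passed against 1.35%. This average treated all libraries as separate, although STR and PFC libraries of the same number are taken as paired further on. The count at an unadjusted p under 0.05 was also 0 of 10 in each of these 4 comparisons, where it was 10.1% of all tested genes in CB, 8.12% in STR, 5.93% in PFC and 12.3% for the mean over regions. At such shares a count of 0 among 10 genes is near the background. DESeq2 called 0 of 10 in each.

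The members' median log2 fold change was -0.16 in CB, -0.26 in STR and -0.01 in PFC, beside 0.01, -0.01 and 0.00 over all tested genes. In STR the estimate was negative for 9 of the 10 genes, but with sex entered as a covariate (log2 of *Xist* over Y-linked counts) it was negative for 1 of the 10, with a median of 0.18. With the same covariate the median in PFC was 0.34. The members carried standard errors of 0.419 to 2.59 on the log2 scale in CB, 0.438 to 0.917 in STR and 0.438 to 0.902 in PFC, where the median tested gene had 0.167, 0.180 and 0.180. The 95% intervals therefore left wide room: for *Egr1*, the member with the narrowest interval in CB, the log2 fold change was 0.05, with an interval from -0.84 to 0.93.

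*Fos* had a log2 fold change of -0.63 ± 0.840 (SE) in CB (adjusted p = 0.885, edgeR), with an interval from -2.40 to 1.15. In STR the value was -0.26 ± 0.917 (adjusted p = 0.985), and in PFC 0.09 ± 0.902 (adjusted p = 0.999). None of these differences was larger than the spread between libraries, and the sign in STR and in PFC turned when single libraries were left out. The member with the smallest p in CB was *Dusp1*, at -0.65 ± 0.468 (adjusted p = 0.719 in edgeR). In STR it was *Npas4*, at -1.05 ± 0.912 (adjusted p = 0.847 in edgeR), and in PFC *Fosb*, at 0.34 ± 0.447 (adjusted p = 0.979). Averaged over the 3 regions, *Dusp1* again had the smallest, at -0.43 ± 0.286 (adjusted p = 0.583 in edgeR). An interval that spans 0 does not show that KI and WT were alike.

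**Figure D2:**
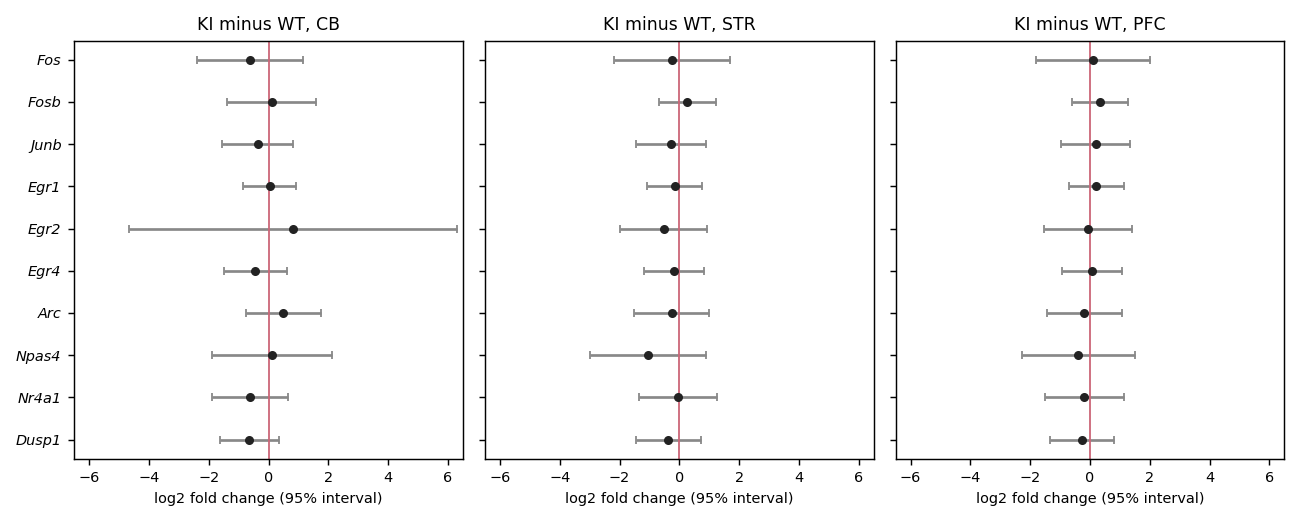
KI minus WT in each region, as log2 fold changes (points) with 95% intervals (bars) from the edgeR fit over 19 libraries, with the red line at 0. All 30 intervals include 0, and that of *Egr2* in CB, where its libraries hold 0 to 4 counts, runs from -4.66 to 6.29.

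*Arc* in CB averaged 42.7 ± 4.39 CPM (SD, n = 4) in KI and 30.4 ± 4.95 CPM (n = 3) in WT, without overlap, a log2 fold change of 0.49 ± 0.591 (SE, adjusted p = 0.864 in edgeR). It was the 1 member of 10 whose genotypes did not overlap in CB, where 12.3% of all tested genes had groups that did not overlap. In STR it was 0 of 10 members against 14.1%, and in PFC 0 of 10 against 8.69%. The standard error of *Arc* in CB rests on the spread that *Arc* shows in the forebrain, since the fit shares 1 estimate over all groups. In a fit of the 7 CB libraries alone it was 0.129, with a log2 fold change of 0.50, an unadjusted p of 0.0036 and an adjusted p of 0.131 in edgeR. Microglial markers also lay apart in CB, with summed levels of 205 to 284 CPM in KI and 142 to 145 CPM in WT, as did the cerebellar neuron markers given above, and their part in the *Arc* value was not tested.

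The KI effect was compared between regions by interaction terms in the same fit. For CB against STR 0 of 10 members passed, against 0.0119% of tested genes, and for CB against PFC 0 of 10 against 0.0178%. For STR against PFC 0 of 10 members passed and 0% of tested genes did. At an unadjusted p under 0.05 the counts were also 0 of 10 members in each, against 6.69%, 6.12% and 4.41% of tested genes, and DESeq2 called 0 of 10.

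The 10 genes varied widely among libraries of one group. After the group means were removed, the SD of log2 CPM was 1.49 for *Fos* and 1.46 for *Npas4*, the most variable of the 10, and 0.63 for *Fosb* and 0.64 for *Egr1*, the least. The other members had values of 1.07 (*Egr2*), 0.91 (*Nr4a1*), 0.90 (*Arc*), 0.81 (*Junb*), 0.74 (*Dusp1*) and 0.70 (*Egr4*). The median over the members was 0.86, beside 0.22 over all tested genes, and 6 of the 10 lay above the 95th percentile of all tested genes (0.80). With a prior count of 0.5 in place of 2, which widens the spread of low genes, 3 of the 10 did (*Fos*, *Npas4* and *Egr2*). *Fosb* then had 0.76 and was no longer the least variable, with *Egr1* at 0.64, *Egr4* at 0.70 and *Dusp1* at 0.74. Low counts add to the spread, so levels matter: among 10662 genes averaging at least 10 CPM, the median SD was 0.15 and the 95th percentile 0.46, and all 9 members at that level lay above it, also with the prior count of 0.5. The median was 0.39 over 20 further inducible transcription factors, 0.36 over 25 effectors and 0.68 over 12 glucocorticoid-induced genes, beside 0.22 over all tested genes. Above the 95th percentile of all tested genes were 1, 1 and 3 of these lists. The SD of *Fosb*, the lowest of the members with the prior count of 2, was at the 89.2th percentile of all tested genes. It was exceeded by 4 of the 20, among them *Nr4a2* (1.16), by 1 of the 25 and by 7 of the 12. Of the 28 upstream genes 0 exceeded the SD of *Fosb*, with a median of 0.14. *Fos* and *Npas4* were at the 99.7th percentile of the 10662 genes averaging at least 10 CPM. The tagwise biological coefficient of variation in edgeR was 0.37 to 0.76 for the members, where the trend at their levels was 0.12 to 0.31.

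**Figure D3:**
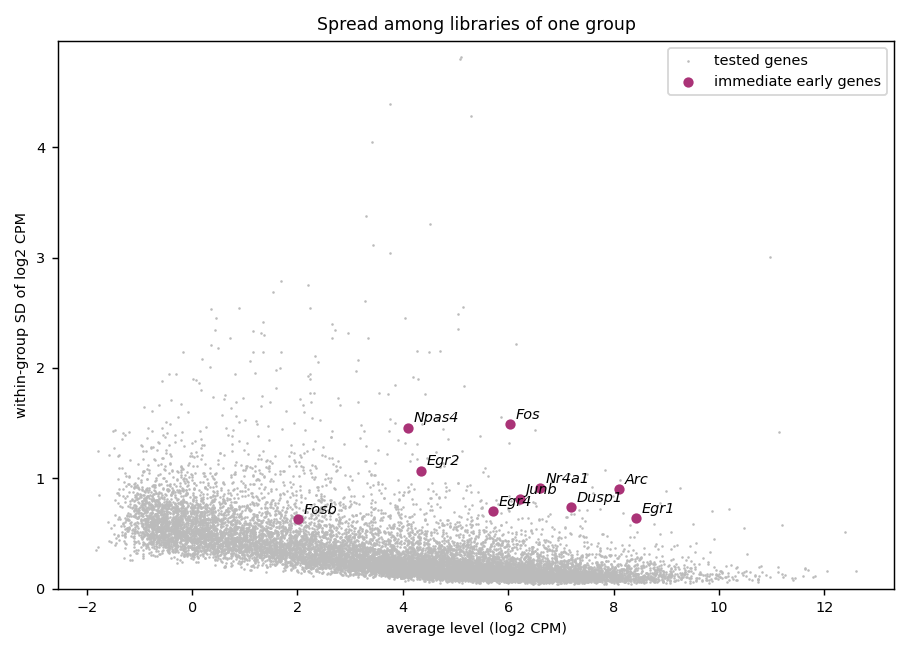
SD of log2 CPM among libraries of the same group (vertical axis) against average log2 CPM (horizontal axis) for the 16841 tested genes (grey) and the 10 immediate early genes (purple). The members lie between 0.63 and 1.49, above most genes of like level, whose median is 0.15 from 10 CPM upwards.

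The spread was shared: within a group, the same libraries were high or low for most of the 10 genes. In STR WT, library 1 was the lowest for 10 of 10 genes and stood on average 1.42 below the group mean on the log2 scale, while libraries 2 and 3 stood 0.62 and 0.81 above it. In STR KI, library 1 was the lowest for 10 of 10 and library 2 the highest for 10 of 10. In PFC WT, library 1 was the lowest for 9 of 10 and library 3 the highest for 10 of 10. In PFC KI, library 1 was the lowest for 10 of 10 and library 3 the highest for 8 of 10. In CB WT, library 1 was the lowest for 9 of 10, and in CB KI library 2 was the lowest and library 3 the highest for 8 of 10 each.

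**Figure D4:**
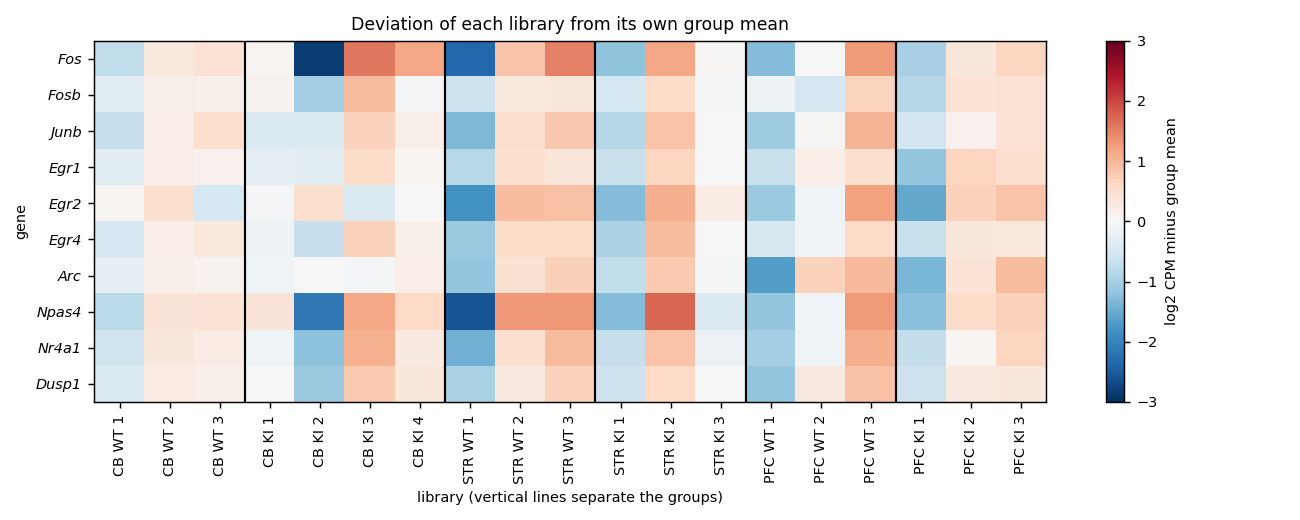
Log2 CPM of each gene (rows) in each library (columns) minus the mean of the library's own group, from blue (below) to red (above), with lines between the groups. The columns are mostly of 1 colour, as in STR WT 1, where all 10 genes lie below the group mean.

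Over the 19 libraries with group means removed, Pearson's r between 2 members had a median of 0.87 over the 45 pairs and ran from 0.57 to 0.97, and Spearman's rho had a median of 0.87. These points share libraries, and at most 13 residual degrees of freedom stand behind them, so the values are given as a description. The number is smaller if STR and PFC libraries of the same number came from the same mice. In 31 of the 45 pairs r was above 0.8. Without the library that was highest for most members in each group the median was 0.82, and without the 2 libraries farthest from the median it was 0.85. Over the 12 STR and PFC libraries alone the median was 0.92 and the lowest 0.76. By region the median was 0.98 in STR, 0.93 in PFC and 0.79 in CB.

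*Egr4*, *Npas4* and *Nr4a1* followed the other members most closely, each with r = 0.96 to the mean of the other 9 over the 19 libraries. *Arc* followed them in STR (r = 1.00) and PFC (r = 0.93), while in CB its r was 0.32. The CB KI library that was lowest for *Fos* (4.49 CPM), *Npas4* (0.665 CPM) and *Dusp1* (62.0 CPM) held 43.1 CPM of *Arc*, the second highest of its group. *Egr2*, at 0 to 4 counts per library in CB, had r = -0.63 there and r = 0.99 in STR and in PFC. Whether the CB values of *Arc* differ from those of the forebrain in this respect was not tested.

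Libraries of STR and PFC with the same genotype and replicate number deviated together. Over all tested genes, r between their deviations was 0.23 to 0.33 for the 3 WT pairs and 0.32 to 0.37 for the 3 KI pairs, while pairs with unlike numbers had at most -0.08, and the sex-linked counts matched in all 6 same-numbered pairs. The labels do not say that these are the same animals, but the numbers were taken to pair STR with PFC. For the 10 genes, STR WT 1 and PFC WT 1 stood 1.42 and 0.98 below their group means, and STR KI 1 and PFC KI 1 stood 0.89 and 0.97 below. STR WT 3 and PFC WT 3 stood 0.81 and 0.95 above, and STR KI 2 and PFC KI 2 stood 0.92 and 0.39 above. STR KI 3 stood 0.04 below and PFC KI 3 0.59 above, the pair that matched least. The number-1 libraries of both regions and genotypes carried Y-linked counts, as did KI 2, and sex and replicate number cannot be told apart within the WT libraries, where numbers 2 and 3 both carried *Xist*. CB numbers did not pair with those of STR or PFC, where no comparison had r over 0.1 in all of its same-numbered pairs.

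**Figure D5:**
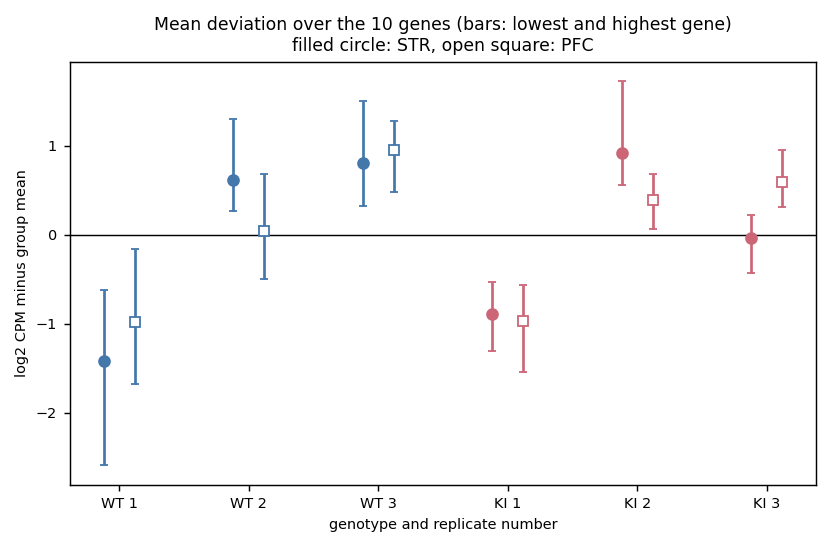
Mean deviation of the 10 genes from the group mean in log2 CPM (vertical axis; bars, lowest and highest gene) for each genotype and replicate number (horizontal axis), in STR (filled circles) and PFC (open squares). Number 1 is below 0 in both regions and both genotypes, from -0.89 to -1.42.

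STR and PFC were compared with and without the pairing. Without it, 0 of 10 members differed between STR and PFC in WT, against 30.5% of tested genes in either direction, and 0 of 10 in KI, against 28.7%, with 0 members at an unadjusted p under 0.05 in each, against 40.2% and 38.9% of tested genes, and 0 called by DESeq2. With the replicate number as a block, in a fit of the 12 STR and PFC libraries that was added after the pairing was seen, the standard errors of the members in WT were between 0.128 and 0.521. A fit of the same 12 libraries without the block, also added after the data were seen, gave 0.437 to 0.948, and 0 of 10 members called in either genotype. In the fit with the block 0 of 10 members differed in WT, against 30.9% of tested genes, and 1 of 10 in KI, against 28.7%. The 1 was *Dusp1*, lower in STR than in PFC by a log2 fold change of -0.45 ± 0.128 (SE, adjusted p = 0.0314 with edgeR and the block), where the 12 libraries without the block gave -0.43 ± 0.511 (adjusted p = 0.585) and all 19 gave -0.44 ± 0.510 (adjusted p = 0.572). In WT its value was -0.28 ± 0.128 with the block (adjusted p = 0.138) and -0.35 ± 0.507 without it (adjusted p = 0.662). *Arc* stood at -0.71 ± 0.289 in WT (adjusted p = 0.1) and -0.78 ± 0.295 in KI (adjusted p = 0.0817) with the block in edgeR, and *Fos* at -1.06 ± 0.351 in KI (adjusted p = 0.0527). The interaction of STR against PFC with KI remained at 0 of 10 members in the fit with the block.

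CB differed from the forebrain in most members. In WT 8 of the 10 were lower in CB than in STR, where 28.7% of all tested genes were, and 8 of 10 were lower in CB than in PFC, against 26.9%. In KI 7 of 10 were lower in CB than in STR, against 27.1%, and 8 of 10 lower in CB than in PFC, against 27.1%. *Fos* and *Dusp1* did not pass in any of these 4 comparisons, and no member was higher in CB. *Fosb* and *Egr2*, at 0 to 11 counts per CB library, passed the filter on low counts only through STR and PFC. For both genes a lower level in CB was thus set in advance by the filter, and their calls add no support. The median over the 10 members, *Fosb* and *Egr2* included, was -2.82 for CB minus STR and -2.65 for CB minus PFC in WT on the log2 scale. Over all tested genes it was 0.00 in both.

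Among the AP-1 genes, *Fosb* was lower in CB than in STR by a log2 fold change of -4.12 ± 0.602 in WT and -4.28 ± 0.516 in KI. These *Fosb* values are a description only, since the filter set their direction in advance. *Junb* was lower in CB than in STR by -2.80 ± 0.604 in WT (adjusted p = 0.000827, edgeR) and -2.89 ± 0.546 in KI (adjusted p = 0.000268), or 6.98 and 7.40 times. *Fos*, also an AP-1 gene, had overlapping levels in all 3 regions. Among the EGR genes, *Egr4* was lower in CB than in STR by -3.10 ± 0.532 in WT (adjusted p = 9.9e-05), and *Egr1* by -2.56 ± 0.467 (adjusted p = 0.000184). *Egr2* had 3 counts in all WT CB libraries together and 1788 in those of STR, a ratio of STR to CB of 622 in CPM (95% exact interval 213 to 3020, counting error only), and 9 against 1334 counts in KI, a ratio of 239 (125 to 523). For PFC to CB the ratio was 389 (133 to 1890) in WT and 183 (96.0 to 402) in KI. The direction of these *Egr2* ratios was likewise set in advance by the filter, so they are a description only.

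*Arc* was lower in CB than in STR by -3.37 ± 0.664 in WT (adjusted p = 0.000369, edgeR) and lower than in PFC by -4.25 ± 0.687 (adjusted p = 6.24e-05). In KI the corresponding values were -2.63 ± 0.575 (adjusted p = 0.000989) and -3.57 ± 0.591 (adjusted p = 7.59e-05). *Npas4* was lower in CB than in STR in WT (-2.84 ± 0.999, adjusted p = 0.0229), while in KI the value was -1.67 ± 0.885 (adjusted p = 0.120). This is the member by which the KI count is smaller, and its interaction, KI effect in CB minus that in STR, was 1.16 ± 1.32 (adjusted p = 0.948), so the 2 genotypes were not shown to differ. *Nr4a1* was lower in CB than in STR by -1.82 ± 0.647 in WT (adjusted p = 0.0243) and -2.41 ± 0.598 in KI (adjusted p = 0.00263). The WT call of *Npas4* against STR was lost without CB WT 1, CB WT 2, STR WT 2 or STR WT 3 (adjusted p up to 0.0795 in edgeR), and that of *Nr4a1* without CB WT 1, CB WT 3, STR WT 2 or STR WT 3 (up to 0.105). Against PFC in WT, *Npas4* stood at -2.88 ± 0.999 (adjusted p = 0.0229) and lost its call without any 1 of the CB WT libraries or PFC WT 3 (up to 0.119). *Nr4a1* stood there at -1.83 ± 0.647 (adjusted p = 0.0255) and lost its call without CB WT 1, CB WT 3 or PFC WT 3 (up to 0.172). In KI against PFC, *Npas4* stood at -2.37 ± 0.884 (adjusted p = 0.0321) and lost its call without CB KI 1, CB KI 2, CB KI 4, PFC KI 2 or PFC KI 3 (up to 0.0931). The KI value of *Npas4* against STR moved to -0.29 without STR KI 2. *Dusp1* stood at 0.95 ± 0.509 for CB minus STR in WT (adjusted p = 0.121), and at 1.18 ± 0.470 with sex as a covariate (adjusted p = 0.0432).

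The genes outside the 10 whose deviations were most like the members' mean over the 19 libraries were *Kmt2e* (r = 0.899), *Mfap3* (0.890), *Tiparp* (0.876), *Btg2* (0.874), *Fosl2* (0.871), *Nr4a3* (0.871), *Klf2* (0.868), *Ier2* (0.864), *Cdh23* (0.860) and *Dph6* (0.858). They are the highest of 16831 genes compared, of which 33 had r above 0.8 and 0 above 0.9, while 14 had r under -0.8, with a median of -0.02. *Kmt2e*, which encodes a chromatin regulator, had an SD within groups of only 0.13 on the log2 scale, where *Btg2*, *Nr4a3* and *Tiparp*, themselves rapidly induced genes, had 0.65, 0.79 and 0.52. In a list of 20 other inducible transcription factors and regulators, 5 had r above 0.8, namely *Btg2*, *Fosl2*, *Nr4a3*, *Klf2* and *Ier2*, and the summed level of the list had r = 0.91 with the members. *Klf6* (r = -0.18) and *Jund* (r = -0.01) of that list did not move with them. In a list of 25 inducible effectors, 1 had r above 0.8 (*Dusp5*, 0.85, a phosphatase for ERK), and the summed level had r = 0.49.

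The summed level of 28 upstream genes (receptors, kinases and factors that drive immediate early transcription) had r = 0.18 with the members, and that of 12 glucocorticoid-induced genes 0.02. *Srf*, the CArG-binding factor, had r = 0.75, the highest of the 28. Marker lists of 8 tissues and cell types had r between -0.37 (astrocytes) and 0.07 (oligodendrocytes), with 0.05 for choroid plexus markers and -0.36 for microglial markers. These values are descriptions over the same 19 libraries.

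Between KI and WT, 0 of 20 inducible transcription factors, 0 of 25 inducible effectors and 0 of 12 glucocorticoid-induced genes passed in any region, against the shares of tested genes given above. At an unadjusted p under 0.05 there were 1, 1 and 0 of the transcription factors in CB, STR and PFC, 3, 3 and 1 of the effectors, and 0 of the glucocorticoid-induced genes in each region, where 10.1%, 8.12% and 5.93% of all tested genes were at that threshold. *Klf6*, with the smallest p of the first list in STR, had 50.9 ± 6.65 CPM in KI and 37.5 ± 4.41 CPM in WT (SD, n = 3 each, adjusted p = 0.287 in edgeR). *Nr4a3* in CB had 2.67 ± 1.27 CPM in KI and 5.32 ± 1.13 CPM in WT without overlap (adjusted p = 0.559 in edgeR). *Dusp5* in CB had 89.5 ± 19.9 CPM in KI and 176 ± 4.69 CPM in WT without overlap (adjusted p = 0.288 in edgeR). Groups did not overlap for 12.3% of all tested genes in CB. Positive log2 fold changes stood there for *Plk2* (0.32, adjusted p = 0.418 in edgeR) and *Dusp4* (0.60, adjusted p = 0.428). *Homer1*, whose activity-induced short form competes with the long synaptic scaffold, had 140 ± 17.3 CPM in KI and 196 ± 8.93 CPM in WT in STR (adjusted p = 0.341 in edgeR). In STR the log2 fold change was -0.42 for *Plk2* (adjusted p = 0.292 in edgeR) and 0.65 for *Dusp4* (adjusted p = 0.551). *Nfkbia*, of the glucocorticoid-induced list, had 79.7 ± 21.3 CPM in KI and 58.6 ± 19.8 CPM in WT in STR (adjusted p = 0.786 in edgeR).

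Of the 28 upstream genes, 1 passed in STR, 0 in CB and 0 in PFC, where 0.582%, 0.831% and 0.107% of all tested genes did. An unadjusted p under 0.05 was reached by 8, 5 and 1 of them, and by 8.12%, 10.1% and 5.93% of all tested genes. *Rps6ka5*, which encodes the kinase MSK1 that phosphorylates CREB and histone H3 at immediate early promoters, fell in STR from 87.9 ± 9.51 CPM in WT to 49.2 ± 2.38 CPM in KI (SD, n = 3 each), a log2 fold change of -0.84 ± 0.154 (SE, adjusted p = 0.0166 in edgeR), without overlap. The call was lost on leaving out STR KI 1, STR KI 3, STR WT 1 or STR WT 2, with an adjusted p of up to 0.110, while the log2 fold change was between -0.92 and -0.79. The striatal projection neuron markers moved in the same direction, as given above, and their part in the *Rps6ka5* value was not tested. *Rps6ka5* had r = 0.08 with the members over the 19 libraries. In CB *Crtc3*, a CREB coactivator, had 38.4 ± 6.26 CPM in KI and 54.8 ± 4.03 CPM in WT (adjusted p = 0.118 in edgeR), and in PFC *Elk4*, an SRF partner, had 19.0 ± 1.56 CPM in KI and 14.4 ± 2.27 CPM in WT (adjusted p = 0.724 in edgeR).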

How the data were processed

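The authors extracted total RNA with Trizol, made cDNA libraries with the SMART-Seq v4 and Nextera XT kits, which do not mark strand, and sequenced them on an Illumina HiSeq1000. The submitters' processing notes name bcl2fastq 2.17.1.14, STAR 2.5.2b, HTSeq, DESeq2 1.10.1 and GRCm38.p3, with no role or order, and the study's methods name Cufflinks and Cuffdiff. The authors deposited the raw count of reads per Ensembl gene, used here, and a signal table in which each library's counts are scaled by 1 constant, used only to check the counts. HTSeq's settings are not given in the sources used here. Gene names, positions and exon lengths came from GENCODE M21, which has an entry for 40254 of the 41128 identifiers.

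The tests ran in edgeR 4.0.16 under R 4.3.3 (filterByExpr, TMM, quasi-likelihood fit of the 6 groups over all 19 libraries, 13 residual degrees of freedom), with Benjamini-Hochberg adjustment over 16841 genes and a threshold of 0.05. CPM values are scaled by TMM, and log2 CPM used a prior count of 2. Totals of 10639110 to 17431284 counts set the precision, and a count of 0 allows up to 3 counts. Nothing says that libraries of a group came from separate animals beyond 3 to 4 mice per genotype, so p-values measure the spread between these libraries. Spread and co-variation used log2 CPM minus group means.

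The replicate numbers paired STR with PFC, by correlations of 0.23 to 0.37 in all 6 same-numbered pairs. The members and gene lists were chosen with earlier results of these data known. Named genes are the 10 members, genes of the activity, upstream and glucocorticoid lists called in KI against WT or among the 3 of smallest p per list and region, and the 10 genes most like the members. *Jund*, *Srf*, *Nr4a2* in the spread and the r of *Klf6* and *Dusp5* were picked after their values were seen. Alternatives were DESeq2 1.42.0, its size factors in edgeR, no filter, at least 10 counts in every library, the compared groups only, replicate blocks, STR and PFC libraries only, sex as a covariate, the omission of each library in turn, and for spread a prior count of 0.5. In a test on simulated counts for KI against WT in CB with 200 changed genes among 16650 tested, edgeR recovered 78% of 2-fold and 95% of 4-fold changes with 5 false calls, and DESeq2 85% and 97% with 23. The changed genes were drawn at random, and the common biological coefficient of variation was 0.191. These rates do not hold for the members, whose tagwise coefficients were 0.37 to 0.76.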

Additional observations from a re-analysis of the deposited data

How the results depend on the processing

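Counts of called members stayed within 1.5 times under all alternatives run, save 1: with the replicate block over STR and PFC only, added after the data had been seen, STR minus PFC in KI went from 0 to 1, and the same 12 libraries without the block gave 0. With at least 10 counts in every library *Fosb* and *Egr2* dropped out. Leaving out 1 library gave 6 to 8 members lower in CB than in STR or in PFC in WT, 7 in KI against STR and 7 to 8 against PFC, and 0 in all comparisons of KI with WT. The replicate block across regions gave 9 for CB minus STR in WT, with *Dusp1* higher in CB (1.11, adjusted p = 0.0279 in edgeR). That block also joins CB libraries by number to those of STR and PFC, with which they do not pair. The block within regions, where KI and WT numbers do not pair, gave 0 in every comparison of KI with WT. It left *Rps6ka5* in STR at -0.83 (adjusted p = 0.0806 in edgeR). The other blocked counts did not change.

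The log2 fold change of *Fos* in STR turned to 0.04 with the block within regions and to 0.37 with sex as a covariate, and ran from -1.02 to 0.45 on leaving out single libraries. Leaving out libraries moved *Fos* in PFC from -0.33 to 0.95, *Egr1* in CB from -0.18 to 0.15, and *Dusp1* for STR minus PFC in WT from -0.73 to 0.14. With sex as a covariate *Npas4* for CB minus STR in WT had an adjusted p of 0.0525. The causes were not tested. The median spread of the members was 0.86 with either prior count, but with 0.5 the members above the 95th percentile of all tested genes went from 6 to 3, while among genes of at least 10 CPM they were 9 of 9 with both. The median correlation was 0.87, or 0.82 without the highest libraries. Depth limits *Egr2* and *Fosb* in CB, at 0 to 11 counts per library, and with 3 or 4 libraries a group the members' own spread limits the comparison of KI with WT.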
